A study of Mus musculus with 3 samples.

Results

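The cytosolic ribosomal protein genes encode the protein components of the ribosome that translates nuclear messages. They were taken as every gene row whose symbol is Rpl or Rps followed by a digit, together with Rplp0, Rplp1, Rplp2 and Rpsa. Rps6k kinases, Rps19bp1 and symbols containing -ps, 17 symbols in all, were left out. The rule found 87 genes among 24481 gene rows, of which 53 belong to the large subunit and 34 to the small one. The rule reads symbols alone.

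The series concerns fatigue and leaf extracts of Sasa quelpaertensis, a dwarf bamboo, in mouse skeletal muscle. RNA came from mice of the outbred ICR stock, taken at postnatal day 42. There was 1 library from each of 3 groups, titled control (NC), exercise control (EC) and exercise SQH (ES). The labels do not give the muscle, the kind or length of exercise, the SQH dose, or how many animals a library holds, and no genotype or allele other than the stock is named. With 1 library per group there is no spread between animals, so no p-value is given, and every difference compares libraries rather than conditions.

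A ribosome holds 1 copy of most of its proteins around a core of ribosomal RNA, and their genes are expressed in nearly every cell. Most of their messages begin with an oligopyrimidine tract (5′TOP), through which the kinase complex mTORC1 sets how actively they are translated. In skeletal muscle, ribosome content is a known determinant of the capacity for protein synthesis. Striated muscle also carries its own version of one of these proteins, Rpl3l, a muscle-restricted copy of Rpl3. A message level, which is what was measured here, does not give the rate at which the message is translated.

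Start-site sequences of 66 of the 87 genes were found in the RefSeq promoter table (build GRCm38.p6), in 78 windows that run from 250 bases before to 50 after an annotated start. They are shown because a tract at the very start of the message is the feature by which this gene family is best known. Capitals mark the longest run of C and T between 30 bases before and 50 after the start, and each stretch is 30 bases of the transcribed strand. Rplp2 is a stalk protein, Rpl26, Rps12 and Rpl24 are genes on which the comparisons turn, and Rps27 with Rps27l and Rpl3l belong to pairs of sister genes.
Rplp2: cgtcagcgTCTTCCTTTCgccgccggacgc
Rpl26: gcgtgtagTTCTCTTTCCTTTTgcggccat
Rps12: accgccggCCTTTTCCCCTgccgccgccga
Rpl24: gaagtgacatcaTCTCTgggcgccggggtc
Rps27: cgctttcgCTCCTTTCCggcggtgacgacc
Rps27l: cgcctccaCTCCTCTCCactcctccccgcc
Rpl3l: tggtggggaggCCCCTTCCTaacctgcagg
These lie at chr7:141447638-141447667 (plus strand), chr11:68901579-68901608 (plus), chr10:23787180-23787209 (minus), chr16:55966295-55966324 (plus), chr3:90213629-90213658 (minus), chr9:66946056-66946085 (plus) and chr17:24727846-24727875 (plus), in that order. Counted from the annotated start as base 1, with -1 the base before it, the runs begin at -5, 22, 9, 33, -2, -22 and 32 in the same order, so most do not lie at that start. A run of at least 10 pyrimidines stood in that interval in 44 of the 78 windows (56.4%), against 14% of all 32851 windows in the table. Within 10 bases of the start it stood in 14 windows (17.9%), against 3% of all. The run of purines, its mirror on the other strand, stood in 3.85% of the windows of these genes and in 15.6% of all. The run was 14 bases in Rpl26, 11 in Rps12 and 10 in Rplp2, but 9 in Rps27, Rps27l and Rpl3l and 5 in Rpl24, which therefore miss the length of 10. Rps27l and Rpl3l each have another annotated start, not shown, where the longest run was 5 and 4 bases.

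Other short words were searched over the whole 300-base windows, on both strands. CGGAAG, the core of sites for ETS-family factors, occurred in 46 windows (59%), against 16.9% of all. AAGATGGCG, the core of sites for the factor YY1, occurred in 6 (7.69%), against 1.4%. CTTTCC occurred in 50%, against 26.6%, and it can lie within a counted pyrimidine run. On the transcribed strand near the start alone, CTTTCC stood in 28.2% of the windows, against 3.73% of all. These matches are a description of the letters and not of factor binding.

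The deposited values are log2 levels to 3 decimals, adjusted for library size. On the linear scale low values bunched at multiples of a step that is what 1 read is worth, which gave about 10.8 M reads for the control library, 8.11 M for exercise control and 12.5 M for exercise SQH (M, mega). These read numbers are approximate, and the error printed after a difference (±) is the standard error from counting reads alone. Muscle identity was plain in all libraries, with Acta1, skeletal actin, at log2 18.56, 18.34 and 19.01 and Ckm, muscle creatine kinase, at 16.59, 17.24 and 17.08. The exercise control library stood apart in its makeup. All 11 of 11 slow-fibre markers were at least 2-fold lower there than in the control (median log2 difference -3.48), with log2 summed levels of 19.10, 15.60 and 18.77 in the control, exercise control and exercise SQH libraries. Its 5 of 8 nerve and Schwann cell markers that passed the expression minimum were all at least 2-fold higher (median 1.85), with sums of 10.29, 12.11 and 10.39. Fast-fibre sums were 19.34, 19.75 and 19.13, and leukocyte sums were 8.04, 8.07 and 8.94, with Cd3e and Cd79a listed at 0. The leukocyte sum is mostly C1qa, the 1 marker of 11 past the minimum, and the other leukocyte markers lay below it. The sums were 9.87, 10.72 and 10.41 for tendon, 12.03, 11.78 and 12.34 for adipocyte (Lep listed at 0) and 10.36, 9.63 and 10.63 for muscle stem cell markers. The adipocyte sum is mostly Fabp4 (11.93, 11.72 and 12.19). Cidea was at 6.62, 4.95 and 7.34, and Cfd at 6.27, 6.25 and 7.49. The stem cell sum is mostly Sdc4, which was higher with SQH than in the control (0.42). Pax7 (-0.40) and Vcam1 (-0.45) were lower in that comparison. In bulk muscle, fewer cells of a type and less RNA per cell cannot be told apart, and the part of these shifts in the values below was not tested. The comparison of exercise SQH with control does not use the exercise control library, but its libraries also differed in makeup. Of the markers past the minimum, 3 of 5 tendon markers were at least 2-fold higher with SQH than in the control (median 1.19). Of the others, Thbs4 differed by 0.08 and Scx was lower (-0.60). In the exercise control, 3 tendon markers were likewise at least 2-fold higher than in the control, and 1, Scx, was at least 2-fold lower (-1.18). All 3 adipocyte markers were higher with SQH than in the control (median 0.72, with 1 at least 2-fold).

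Together the 87 genes made up 1.02% of the linear signal in the control (95% exact binomial interval 1.01% to 1.02%), 1.03% in the exercise control (1.03% to 1.04%) and 1.07% in the exercise SQH library (1.07% to 1.08%). Intervals cover counting error only and ignore variation between animals. Without Rn45s, the ribosomal precursor RNA, which held 9.19%, 9.06% and 7.25% of the signal, the shares were 1.12%, 1.14% and 1.16%. Without the 50 most abundant other genes they were 1.77%, 1.77% and 1.80%. The small subunit gave 0.432%, 0.444% and 0.449% and the large subunit 0.585%, 0.591% and 0.623%. The share of muscle messages that encode ribosomal proteins was thus within a narrow range across the 3 libraries. Its order did not change with the denominator except that control and exercise control were level at 1.77%. The set of genes was not varied for these shares. Rpl3l alone supplied 5.64% (control), 7.87% (exercise control) and 5.81% (exercise SQH) of the ribosomal protein signal. The small lead of exercise control over control rests on that gene.

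An expression minimum was set at a mean linear value of 66.5, the median of the 15714 gene rows with any signal, and 76 of the 87 genes passed it (44 large, 32 small) among 7857 rows. The members closest to it were Rpl36a above (76.0) and Rpl11 below (54.1). The 76 had a median log2 level of 9.44 (control), 9.35 (exercise control) and 9.66 (exercise SQH), against 8.09, 8.02 and 8.09 over all rows that passed. In these libraries reads are taken from the 3′ end and do not grow with transcript length, so levels were set beside each other without scaling by length. Reads that match near copies, described below, leave that comparison uncertain for most members.

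**Figure D1:**
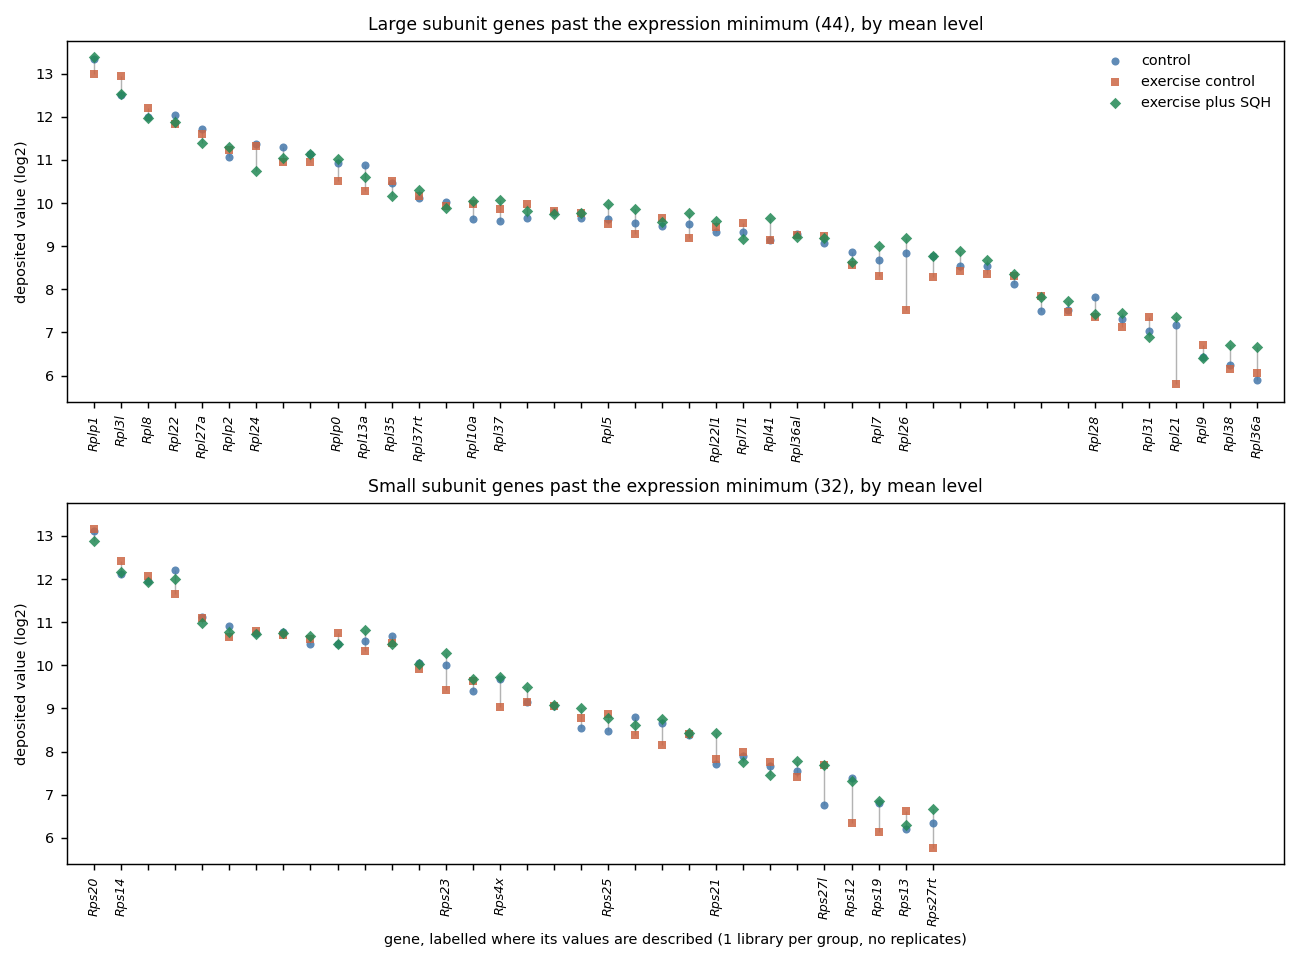
Deposited log2 level of each ribosomal protein gene past the expression minimum in the control, exercise control and exercise SQH libraries, ordered by mean level within the large and small subunits and labelled where its values are described. Most genes have their 3 points close together, from Rplp1 near 13 down to Rpl36a near 6, and Rpl26, Rpl21 and Rps12 have an exercise control point well below the others.

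The highest member was Rplp1, one of the acidic proteins of the stalk that recruits elongation factors, at log2 13.34 (control), 12.99 (exercise control) and 13.38 (exercise SQH). Rps20 followed at 13.12, 13.16 and 12.88. Rpl3l came next at 12.50, 12.94 and 12.53, and it alone supplied 5.64%, 7.87% and 5.81% of all ribosomal protein signal. Rps14 was at 12.12, 12.43 and 12.16. Rpl8, which lies near the peptidyl transferase centre, was at 12.20 in the exercise control and 11.97 in the exercise SQH library, which lay 0.20 above and 0.03 below the control (a difference of -0.03). Neighbours in this order swapped places between libraries: Rps20 was above Rplp1 in the exercise control and below it in the other libraries.

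The stalk proteins differed in level and in pattern. Rplp0, the base to which the acidic proteins bind, was at 10.94, 10.52 and 11.01 in the control, exercise control and exercise SQH libraries, lowest in the exercise control by 0.42 ± 0.05 below the control. Rplp1 had the same order, with the exercise control 0.34 ± 0.02 below the control (a difference of -0.34). Rplp2 was instead lowest in the control, at 11.07, 11.23 and 11.30. None of the 3 reached a 1.5-fold difference in any comparison.

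At the lower end of those past the minimum, Rpl36a was at 5.91, 6.06 and 6.67, Rps27rt at 6.35, 5.77 and 6.68, and Rps13 at 6.19, 6.62 and 6.29. Rpl38, known for its part in translating Hox messages in the embryo, was at 6.25, 6.16 and 6.70, and Rpl9 at 6.43, 6.71 and 6.40. Rps13 and Rpl9 were highest in the exercise control, whereas Rps27rt and Rpl38 were lowest there. Of the 11 genes below the minimum, 9 had signal in every library: Rpl11, Rpl12, Rpl17, Rpl23a, Rpl34, Rps27, Rps4l, Rpl3 and Rpl29. The testis-type copy Rpl39l was at 1.53 in the control, about 3 reads, and listed at 0 in the exercise control and SQH libraries. Rpl10l, another testis-type copy, was listed at 0 in all 3.

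Ribosomes contain most of these proteins in equal numbers, yet the message levels of the 76 spanned log2 5.91 to 13.34 in the control. Rpl11 and Rpl5 enter the ribosome together as partners, and both bind Mdm2 when ribosome assembly is disturbed. Rpl5 was at 9.63, 9.52 and 9.97, while Rpl11 was at 6.19, 4.71 and 5.98. Rpl11 thus rested on about 78, 22 and 83 reads, against 843, 620 and 1322 for Rpl5.

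A feature of this family bears on how its reads can be counted. Ribosomal protein messages have been copied into the genome many times as processed pseudogenes, and a short read from the 3′ end may match several of them. Of the 87 genes, 81 had at least 1 other annotated gene matching their last 100 coding bases at 95% identity or more over at least 80 bases. Rpl37rt and Rps4l are annotated as pseudogenes, so the last 100 bases of their transcripts were used instead. For the other genes the untranslated 3′ end was not compared, so the counts do not directly measure how many reads match several places. There were 788 such near copies, 762 of them annotated pseudogenes, and 19 had a row of their own in the files. The median was 6 per gene, and the most were 66 for Rpl21, 57 for Rps2 and 50 for Rpl7a. The handling of reads that match several places is not given in the sources used here, so levels of genes with many copies are uncertain.

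Levels were lower in members with more copies. The 4 past the minimum with no near copy, Rpl3l among them, had a median mean level of log2 12.02, the 25 with 1 to 4 copies 9.73, and the 47 with 5 or more 8.69. Spearman's rho between the number of copies and the mean level was -0.45 over 76 genes, which share libraries and are not independent. Of the 11 members below the minimum, 8 had 5 or more copies. Lower amounts of message and reads matching several copies cannot be told apart here.

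**Figure D2:**
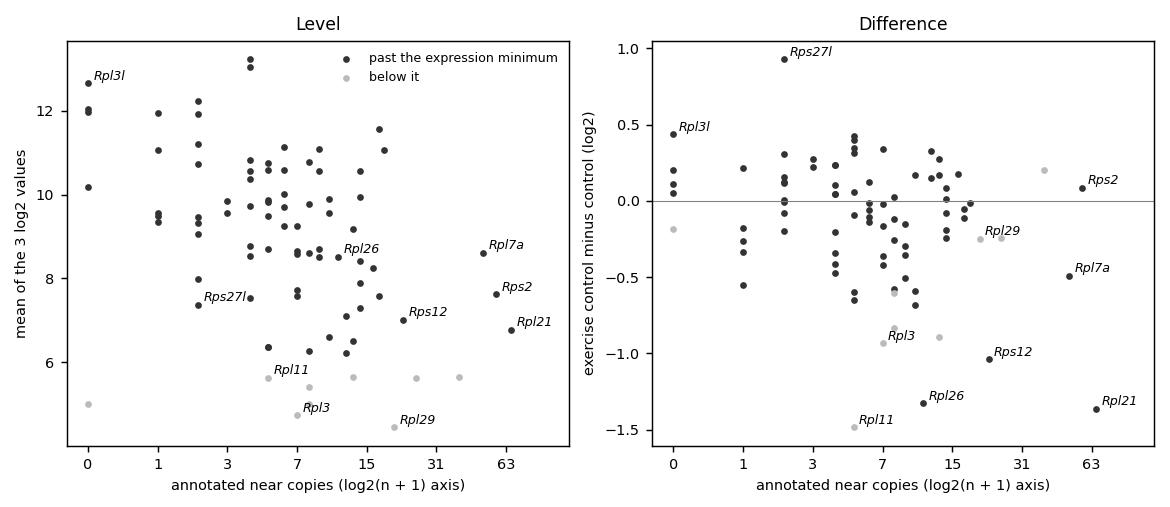
Left, mean of the 3 log2 levels of each gene against its number of annotated near copies, on a log2(n + 1) axis; right, the log2 difference of exercise control minus control against the same number. Rpl3l, with 0 copies, stands near the top on the left, and Rpl26, Rpl21 and Rps12 stand lowest among the dark points on the right, with 11, 66 and 22 copies.

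The muscle-restricted copy Rpl3l outweighed Rpl3, which shapes the peptidyl transferase centre, by a wide margin in every library. Rpl3l minus Rpl3 was log2 7.51 ± 0.25 (182-fold) for the control, 8.88 ± 0.39 for exercise control (470-fold) and 7.39 ± 0.21 with SQH (167-fold). Rpl3 was at 4.995, 4.06 and 5.14, resting on about 34, 14 and 47 reads, and it has 7 near copies where Rpl3l has 0. The ratio thus rests on few Rpl3 reads. Rpl3l itself was higher in the exercise control by 0.44 ± 0.03 than its control level, and the SQH library was 0.03 ± 0.02 above the control.

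Rps27l, a small-subunit copy known as a target of p53, had the highest difference of all members between exercise control and control. It was at 6.75 (control), 7.68 (exercise control) and 7.69 (exercise SQH), so the control library was low and both exercise libraries were level. The difference was 0.93 ± 0.17 for exercise control and 0.94 ± 0.16 for exercise SQH, each against the same control library. Its sister Rps27 was at 5.33, 4.50 and 5.20, lowest in the exercise control on about 19 reads. Rps27l minus Rps27 was accordingly 1.42 ± 0.26, 3.18 ± 0.35 and 2.49 ± 0.22. Rps27rt, a retrotransposed copy that matches Rps27 closely enough to share reads with it, exceeded it by 1.02, 1.27 and 1.47.

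The other sister genes kept their order in every library. Rpl22, which also binds RNA outside the ribosome, was at 12.04, 11.84 and 11.89, and its copy Rpl22l1 was at 9.33, 9.45 and 9.60. Rpl22l1 minus Rpl22 was -2.71 ± 0.06, -2.40 ± 0.06 and -2.30 ± 0.05. Rpl36al exceeded Rpl36a by 3.37 ± 0.19, 3.20 ± 0.20 and 2.54 ± 0.14, and these genes are near copies of each other. Rpl7l1 exceeded Rpl7 by 0.65 ± 0.09, 1.23 ± 0.11 and 0.17 ± 0.08, with Rpl7 at 8.67, 8.32 and 8.99 and Rpl7l1 at 9.32, 9.54 and 9.17. Thus Rpl7 was lowest, and Rpl7l1 highest, in the exercise control. Rpl37rt exceeded Rpl37, its near copy, by 0.53, 0.30 and 0.23. Rps4l lay below Rps4x by the differences -4.60, -4.14 and -4.72. Rpl37rt and Rps4l are annotated as transcribed processed pseudogenes.

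**Figure D3:**
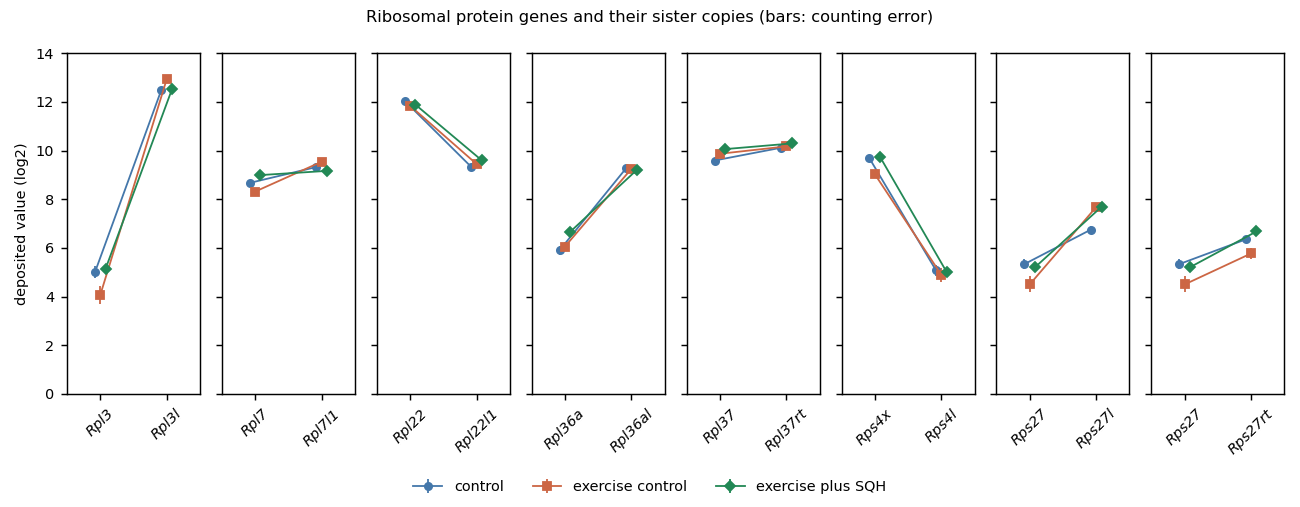
Deposited log2 level of each ribosomal protein gene and its sister copy in the 3 libraries, joined by lines, with counting error as bars. The large step from Rpl3 to Rpl3l is seen in all 3 libraries, and the exercise control line is the steepest from Rpl3 to Rpl3l and from Rps27 to Rps27l.

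The first comparison, exercise control against control, concerns exercise without SQH. Most ribosomal protein genes lay close to the control: the median log2 difference was -0.02 (quartiles -0.27 to 0.16), against -0.04 over all rows past the minimum, with 35 members above 0 and 41 below. The sign of this median depends on scaling, being 0.06 with libraries centred on their medians and 0.03 with quantile normalization, and the share below 0 was 53.9%, 46.1% and 43.4% under the deposited, centred and quantile scales. The spread (SD) among members was 0.383, against 0.645 among all rows. Members lay higher in level than all rows (median 9.48 against 8.05, taking the mean of the 3 log2 values). The background of all rows was not matched for level, here or below. The part of level in these contrasts was not tested. By the 2-fold rule 3 members were lower and 0 higher, 3.95% of the 76, where the background was 8.29% of all 7857 rows, or 5.33% for lower and 2.95% for higher alone. No replicate exists to test the calls.

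The 3 called genes were Rpl21, Rpl26 and Rps12. Rpl21, of the large subunit (chr5:146832890-146837032, plus strand), was at log2 7.17 (control), 5.80 (exercise control) and 7.36 (exercise SQH), on about 153, 47 and 216 reads. It differed by -1.36 ± 0.24. Rpl26, a large-subunit protein also known to bind the p53 message (chr11:68901583-68906989, plus strand), was at 8.85, 7.52 and 9.19, on about 491, 155 and 769 reads. Its difference was -1.33 ± 0.13. Rps12, of the small subunit (chr10:23785183-23787275, minus strand), was at 7.38, 6.34 and 7.31 and differed by -1.04 ± 0.21. In each of the 3 the exercise control library alone was low. Rps12, with 22 near copies, sits at the 2-fold limit within its counting error, and its call ends under centring (-0.97), quantile normalization (-0.98) and a pseudocount of 8 (-0.97). Rpl21 and Rpl26 were called under all 3.

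By a 1.5-fold rule, Rps27l alone was higher and 7 members were lower, 10.5% of the 76 against a background of 25.6% (15.5% for lower and 10.1% for higher alone). The count of lower members was 4 under centring and 4 under quantile normalization, which leave out Rpl13a (-0.52 and -0.50), Rps23 (-0.52 and -0.53) and Rps4x (-0.58 and -0.58). Besides the called genes the lower ones were Rps19, mutated in Diamond-Blackfan anaemia, at 6.82, 6.13 and 6.85 (-0.68 ± 0.23); Rps4x, at 9.68, 9.03 and 9.73 (-0.65 ± 0.08); Rpl13a, at 10.88, 10.29 and 10.61 (-0.60 ± 0.05); and Rps23, close to the decoding centre, at 10.01, 9.42 and 10.28 (-0.59 ± 0.07). All 7 have 5 or more near copies, as do 47 of the 76. Among the 29 members with 0 to 4 copies, a set chosen after seeing the data, 0 were 1.5-fold lower and the median difference was 0.06. Rps9, with 1 copy, came close to that limit (-0.55 ± 0.03). Members with fewer copies also had higher levels, as given above. Among the highest differences after Rps27l were Rpl3l (0.44 ± 0.03), Rps13 (0.43 ± 0.23), Rps25 (0.40 ± 0.10) and Rpl10a (0.35 ± 0.07). Rps25 and Rpl10a are both known for their part in internal initiation. Rps25 overlaps exons of Ccdc84 and Trappc4 on the opposite strand, and no source used here says whether reads were counted by strand.

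**Figure D4:**
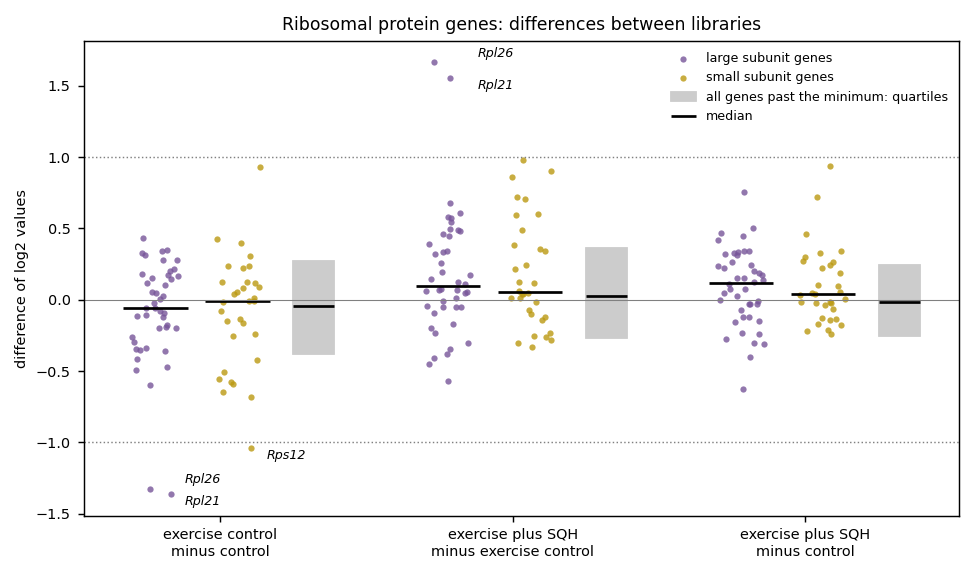
Log2 difference of each ribosomal protein gene past the expression minimum in the 3 comparisons, by subunit, with the median as a black line and the quartiles of all genes past the minimum as a grey box; dotted lines mark 2-fold. Most points lie between -0.5 and 0.5, Rpl26 and Rpl21 lie lowest on the left and highest in the middle, and no point on the right passes 2-fold.

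The second comparison, exercise SQH against exercise control, shares the exercise control library with the first, so a low value there appears in both with opposite sign. The median difference was 0.07 (quartiles -0.08 to 0.45), against 0.03 over all rows, with 50 members above 0 and 26 below. On the centred scale the median was -0.00 and 50% lay below 0, and on the quantile scale the values were 0.03 and 43.4%, where the deposited scale gave 34.2%. By the 2-fold rule 2 members were higher and 0 lower, 2.63% against a background of 8.01% (5.68% for higher and 2.33% for lower alone). They were Rpl26 (1.66 ± 0.13) and Rpl21 (1.55 ± 0.23). Rps12 was just inside the limit at 0.98 ± 0.20.

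At 1.5-fold, 11 members were higher and 0 lower, 14.5% against a background of 24% (14.8% for higher and 9.28% for lower alone). Rps27rt was 0.90 ± 0.25 and Rps23 0.86 ± 0.07 higher. Others were Rps19, Rps4x, Rpl7, Rpl36a and Rps21, at 0.60 to 0.72. Of the 11, 10 have 5 or more near copies, and the exception is Rps21. Rps23, Rps4x, Rpl26, Rps12, Rpl21 and Rps19 were at least 1.5-fold lower in the exercise control library than in each other library. The share of all rows past the minimum that met both limits was not counted. Such a dip is therefore not shown to be particular to these genes. Taken singly, 15.5% of all rows were 1.5-fold lower in the first comparison and 14.8% were 1.5-fold higher in the second. The lowest differences were Rpl24 (-0.57 ± 0.04), Rpl31 (-0.45 ± 0.17), Rpl3l (-0.41 ± 0.02), Rpl7l1 (-0.38 ± 0.08) and Rpl35 (-0.35 ± 0.06). Rpl24 was at 11.37, 11.31 and 10.74 in the control, exercise control and exercise SQH libraries, so that the SQH library alone was low.

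The third comparison, exercise SQH against control, leaves out the exercise control library. Here members differed least: the SD was 0.269, against 0.440 over all rows, and the median was 0.07 (0.06 centred, 0.11 quantile), against -0.02 over all rows. By the 2-fold rule 0 of the 76 were called in either direction, where the background was 3.02% (1.76% higher, 1.26% lower). By the 1.5-fold rule 3 were higher and 1 lower, 5.26% against 13.8% (7.41% for higher and 6.36% for lower alone). Rpl21, Rpl26 and Rps12, the genes called in the first comparison, stood at 0.19 ± 0.15, 0.34 ± 0.08 and -0.06 ± 0.15.

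The 3 that were higher were Rps27l (0.94 ± 0.16), Rpl36a (0.76 ± 0.22) and Rps21 (0.72 ± 0.12). Rps21 was at 7.71, 7.83 and 8.43 and Rpl36a at 5.91, 6.06 and 6.67, so in both the SQH library alone was high. Rpl41, a very short basic peptide between the subunits, was at 9.14, 9.15 and 9.65 (0.50 ± 0.07), and Rpl37 at 9.59, 9.87 and 10.06 (0.47 ± 0.06). Rpl24 was the member that was lower, at -0.63 ± 0.04, with 2819 reads in the control and 2261 in the larger SQH library. It shares exonic sequence on its own strand with the annotated gene Gm28037. Next came Rpl28 (-0.40 ± 0.13), Rpl27a (-0.31 ± 0.03), Rpl35 (-0.30 ± 0.05) and Rpl13a (-0.27 ± 0.05). Of these, Rpl28 overlaps an exon of Ube2s on the opposite strand, and Rpl35 those of Arpc5l and Wdr38.

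Across all 3 libraries, 62 of the 76 members (81.6%) stayed within 1.5-fold, against 60.7% of all rows past the minimum, and 3 (3.95%) reached 2-fold, against 13.3%. These backgrounds are not matched for level, and the members lay higher in level than all rows. The exercise control was the lowest library in 35 (46.1%, against 40.1% of all rows past the minimum), the control in 23 (30.3%, against 29.6%) and the SQH library in 18 (23.7%, against 30.4%). The SQH library was the highest in 37 (48.7%, against 31.2%). Both subunits gave near-zero medians. Exercise control minus control had a median of -0.06 in the large and -0.01 in the small subunit, exercise SQH minus exercise control 0.09 and 0.05, and exercise SQH minus control 0.12 and 0.04.

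Members of low level spread further. In exercise control minus control the SD was 0.488 among the 25 members of lowest level, 0.378 among the middle 26 and 0.261 among the 25 highest. In exercise SQH minus exercise control the lowest 25 had a median of 0.34, and the highest 25 had 0.04. Counting error is larger at low level, up to 0.26 among members past the minimum in the first comparison, and near copies are also more common there.

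Fau encodes a further ribosomal protein, as a fusion to a ubiquitin-like protein. It was at 8.47, 8.36 and 8.87, highest with SQH by 0.51 ± 0.10 over the exercise control. The other messages of the TOP class, 21 past the minimum, had medians of -0.15, 0.23 and 0.01 in the comparisons in the order above, and 0 were called in each. The background of called rows was 8.29%, 8.01% and 3.02% in the same order, at which few calls would fall in so short a list. Eef1a1, the elongation factor that brings transfer RNA, was at 10.10, 9.61 and 10.40, lowest in the exercise control. Eif2s3x, an initiation factor subunit, had the same order at 7.89, 7.24 and 8.09. Hnrnpa1, an RNA-binding protein, was at 8.16, 8.55 and 8.97.

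Initiation and elongation factors outside that class (29) had medians of 0.14, -0.08 and 0.12. In each comparison 0 were called, against the same backgrounds of 8.29%, 8.01% and 3.02%. Eif2ak1, a kinase that halts initiation, was at 10.81, 11.44 and 10.55, highest in the exercise control. Eif3a was at 11.41, 10.67 and 10.79, highest in the control. Genes of the RNA polymerase I machinery (10), subunits and accessory factors for making ribosomal RNA, had medians of -0.03, -0.01 and 0.03. Of these 10, 0 were called against those backgrounds, and so short a list would hold few calls.

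Ribosome assembly factors (38) had medians of 0.03, -0.05 and -0.06. Against the control library, 1 was called higher and 3 lower in the exercise control, 10.5% against the background of 8.29%. Eif6, which keeps the subunits apart until the large one is mature, was at 7.19, 8.68 and 7.70 (1.49 ± 0.14). Nob1, which trims small-subunit RNA, was at 7.64, 6.36 and 7.21 (-1.28 ± 0.20). Sbds, which releases Eif6, was at 7.49, 6.44 and 7.60 (-1.05 ± 0.20), and it was called higher with SQH than in the exercise control (1.16 ± 0.19). Ltv1, of small-subunit assembly, was at 7.04, 6.03 and 6.38 (-1.01 ± 0.23).

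Of the genes of mTORC1 and TOP control, 21 passed the minimum, with medians of -0.05, 0.02 and 0.03. The call in this list was Rraga, a GTPase that brings mTORC1 to the lysosome, at 9.87, 9.11 and 10.40, which was 1.29 ± 0.08 higher with SQH than in the exercise control. That was 4.76% of the list, against a background of 8.01%. Rptor, the defining subunit of mTORC1, was at 6.45, 5.92 and 6.82, and Nprl3 at 7.20, 6.64 and 7.56. All 3, named for the size of their differences, were lowest in the exercise control, as were 40.1% of all rows past the minimum. In exercise control minus control, 8 of the 21 were above 0 and 13 below.

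The 74 mitochondrial ribosomal protein genes past the minimum, which serve the separate ribosome of the mitochondrion, had medians of -0.01, -0.10 and -0.06. In the first comparison 4 were called lower and 0 higher (5.41%, below the background of 8.29%), and in the second 4 higher and 1 lower (6.76%, below 8.01%). Mrps28 was at 8.16, 5.54 and 8.86, Mrpl27 at 7.47, 6.13 and 7.73, and Mrpl44 at 7.95, 6.76 and 7.95. As in Rpl21 and Rpl26, the exercise control alone was low in these 3, which were named for the size of their differences. Across the list, 35 members were above 0 in exercise control minus control and 38 below. In the third comparison 0 were called, against a background of 3.02%. The difference between cytosolic and mitochondrial members was not tested, since there is 1 library per group.

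**Figure D5:**
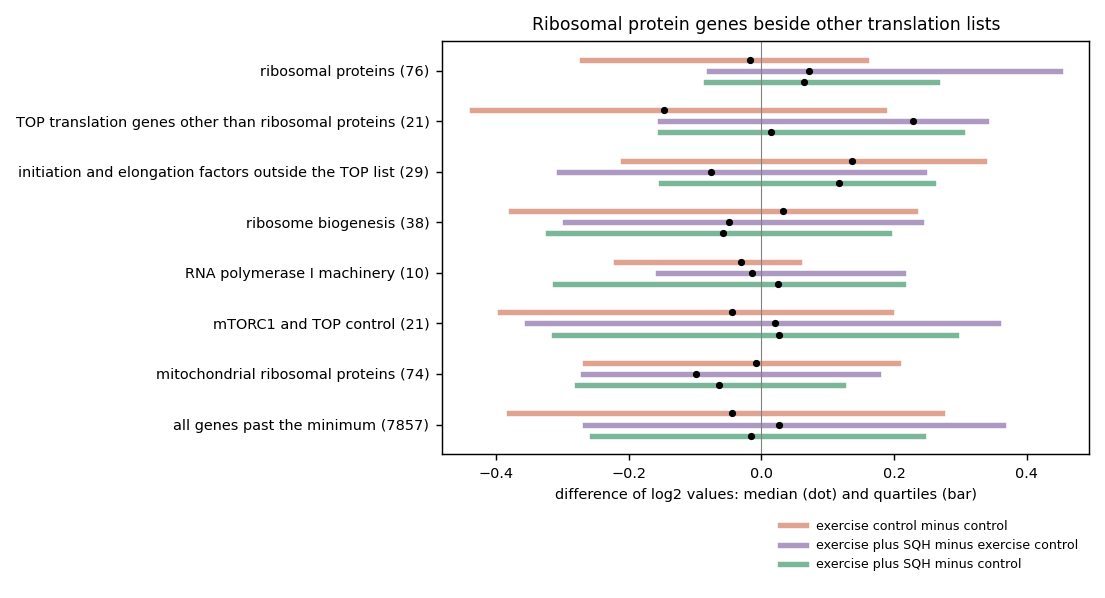
Median (dot) and quartiles (bar) of the log2 differences of the ribosomal protein genes, other translation lists and all genes past the minimum, in the 3 comparisons, with the number of genes in brackets. All medians lie between -0.2 and 0.3, and the ribosomal proteins lie at -0.02, 0.07 and 0.07.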

How the data were processed

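The authors deposited, per the file headers, 1 column of log2 values per library under a sample code. Per the labels' protocols, RNA was extracted with Trizol and 500 ng went into Lexogen QuantSeq 3′ libraries. Bowtie2, edgeR and mm10 are named in the submitters' processing notes, without versions or roles. The sources used here do not give the counter, annotation, strand handling or treatment of multiply matching reads. The scale was worked out from the values: linear values up to 9 bunched at multiples of 0.941, 1.19 and 0.759 (100%, 95.5% and 80.5% lay within 0.2 step) in the control, exercise control and exercise SQH libraries. Reads are linear values divided by that step, rounded. They are approximate, and no count test was run because there are no replicates.

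Groups come from the sample titles, with 1 library each. A gene was called at a log2 difference of 1 or more among rows past the expression minimum, and 1.5-fold was used as a finer description. Errors are Poisson errors of the log2 ratio. Genes named were the stalk, the sister pairs, the called genes, the 5 highest and lowest differences and levels, and up to 3 of the largest differences per other list. Rpl5, Rpl11 and the other members below the minimum, Eef1a1 and those 1.5-fold apart were added after their values were seen. Members and lists were chosen with earlier results of these data known. Near copies came from blastn 2.17.0 on GENCODE M21 transcripts (GRCm38, the assembly called mm10), and starts from the RefSeq promoter table. Python 3.11.15, pandas 2.3.3 and scipy 1.17.1 were used. The 2-fold rule was also tested on simulated data with counting noise alone, which cannot speak to variation between animals. Alternatives were other scalings, minimums, a pseudocount of 8, other denominators and other member sets. Values of 3 genes are not reported here.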

Additional observations from a re-analysis of the deposited data

How the results depend on the processing

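No paired analysis was possible because each group has 1 library, and for the same reason none could be left out within a group; the depth of the exercise control limits low members most. With libraries centred on their medians, exercise control minus control gave 1 member 2-fold higher and 4 that were 1.5-fold lower, and exercise SQH minus exercise control gave 1 that was 1.5-fold lower. Quantile normalization gave 4 and 1 for the same 1.5-fold counts. Without a minimum, 12 members were 1.5-fold lower in the first comparison and 4 were 2-fold higher in the second. With the minimum at the upper quartile (271), the first comparison had 1 member 2-fold lower, 0 that were 1.5-fold higher and 4 lower, the second had 1 member 2-fold higher and 5 that were 1.5-fold higher, and exercise SQH minus control had 0 that were 1.5-fold higher; fewer genes are tested under it. Without members that share a symbol stem with a pseudogene row and without sister copies, which removes Rps27l, 0 members were 1.5-fold higher in the first comparison. Only members with 0 to 4 near copies, a set chosen after seeing the data, gave 0 members 2-fold lower and 0 that were 1.5-fold lower in the first comparison, 0 that were 2-fold higher and 1 that was 1.5-fold higher in the second, and 0 that were 1.5-fold lower in the third. Shares of signal were 1.12%, 1.14% and 1.16% without Rn45s and 1.77%, 1.77% and 1.80% without the 50 most abundant other genes. The causes of these shifts were not tested beyond what each setting removes.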
